A study of Mus musculus with 22 samples.

Results

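The loci of 10 genes of cerebellar granule neurons (Zic1, Zic2, Zic4, Pax6, Neurod1, Atoh1, Barhl1, En2, Cbln1 and Cbln3) were followed across the cerebellum, cortex and olfactory bulb, out of 21755 protein-coding genes of chromosomes 1 to 19 and X. Each gene was placed at its GENCODE M21 span on mm10 (GRCm38), and every bin that overlapped it was taken, with 500 kb on either side as flanks. All 10 genes lay within 1 bin each. Zic1 and Zic4 overlap and share their bins, so the genes gave 9 loci, that is 9 of the 25664 tested bins of 100 kb for 5mC and 9 of the 2581 tested bins of 1 Mb for 5hmC. All 9 passed the filter in both assays.

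The mice were female C57BL/6 animals at 8 weeks of age with no treatment, and no group carried an engineered allele. The cortex was the whole cerebral cortex without the hippocampus, and the cerebellum and olfactory bulb were taken whole. OxBS-seq, which removes 5hmC by oxidation before bisulfite conversion and so reads only 5mC, was run on 3 cortex, 2 olfactory bulb and 2 cerebellum libraries. TAB-seq, which protects 5hmC and oxidizes 5mC so that only 5hmC is read, had 3 libraries of each tissue. The libraries of a tissue came from independent mice. A level is the fraction of modified cytosine in a bin, from 0 to 1, and the number of reads behind the level of a bin is not given in the values used here.

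Granule neurons are the small glutamatergic neurons that fill the inner layer of the cerebellar cortex and make up most of its cells. They arise from the rhombic lip, where the transcription factor Atoh1 is switched on in dividing precursors, and then pass through a sequence of factors including Zic, Pax6, Barhl1 and Neurod1 as they leave the cell cycle and migrate inward. Mature granule neurons secrete cerebellins from their parallel fibres onto Purkinje cells. Several of these genes also have roles elsewhere, since Pax6 and Zic factors act in olfactory bulb interneurons, and Pax6 and Neurod1 in cortical neurogenesis. Expression was not among the values used here, so the label of the genes could not be checked against RNA. In whole tissue, a lower share of methylated cells and a lower level in each cell cannot be told apart.

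The 4 transcription factor promoters below are shown because they belong to bins with a called fall of 5mC from cortex to cerebellum (Neurod1 and Pax6) and to bins with no call (Zic1 and Atoh1). They are the RefSeq stretches upstream of the start site on GRCm38.p6, limited to the bases that no GENCODE exon touches, and are written 5′ to 3′ on the strand of the gene with each CG, the site at which 5mC and 5hmC mostly occur, in capitals. They lie at chr2:79456786-79456886 (Neurod1, minus strand), chr2:105668646-105668895 (Pax6, plus strand), chr9:91365811-91366018 (Zic1, minus strand) and chr6:64728875-64729124 (Atoh1, plus strand).
Neurod1: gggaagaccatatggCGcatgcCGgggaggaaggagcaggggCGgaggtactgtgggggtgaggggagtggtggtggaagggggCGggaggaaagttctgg
Pax6: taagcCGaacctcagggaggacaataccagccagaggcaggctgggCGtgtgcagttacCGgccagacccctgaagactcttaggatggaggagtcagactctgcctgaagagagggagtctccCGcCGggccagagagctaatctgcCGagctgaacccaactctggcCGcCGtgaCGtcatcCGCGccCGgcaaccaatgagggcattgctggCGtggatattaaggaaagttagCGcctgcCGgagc
Zic1: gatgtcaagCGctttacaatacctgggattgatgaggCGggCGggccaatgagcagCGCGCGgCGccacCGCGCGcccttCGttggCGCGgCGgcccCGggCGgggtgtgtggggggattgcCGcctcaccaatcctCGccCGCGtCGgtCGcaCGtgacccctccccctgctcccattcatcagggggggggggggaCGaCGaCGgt
Atoh1: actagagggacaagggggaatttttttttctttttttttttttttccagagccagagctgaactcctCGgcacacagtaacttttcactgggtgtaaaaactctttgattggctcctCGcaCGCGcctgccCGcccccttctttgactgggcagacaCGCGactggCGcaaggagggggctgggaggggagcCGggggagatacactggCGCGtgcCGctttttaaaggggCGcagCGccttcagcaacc
In the whole 250 bases before the start site, Zic1 held 27 CG sites, Neurod1 22, Pax6 15 and Atoh1 14, against a median of 6 over 32851 RefSeq promoters, of which 92.1% held 1 or more. The CG letters were counted on 1 strand, since the pair reads the same on both. Of the other members with a RefSeq promoter, Cbln3 held 2, Zic4 held 4, and Barhl1 held 7 and 12 before its 2 start sites. The levels below are means over 100 kb or 1 Mb and do not resolve these windows.

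The gene itself was a small part of each 100 kb bin, from 2.12% for Atoh1 to 28.5% for Pax6, and under 10% in 8 of the 10 genes. The bins of Pax6, En2 and Cbln1 held no other protein-coding gene. That of Neurod1 also held part of Cerkl, whose span covers Neurod1 on the same strand, and that of Zic2 held Zic5, Gm5089, Gm10837 and part of Clybl. Barhl1 shared its bin with Ddx31 and Cfap77, and Cbln3 with Nfatc4, Nynrin, Khnyn and Sdr39u1. All 9 bins were richer in CpG than the median bin of 751 sites, from 859 sites at Neurod1 to 1842 at Zic2.

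The whole genome moved between the tissues, and the loci have to be read against that shift. Over all bins, the cerebellum had a median 5mC level of 0.753, the olfactory bulb one of 0.728 and the cortex one of 0.697, and the median change from cortex to cerebellum was 0.0585 (0.43 on the scale of log2 odds, log2 of the level over 1 minus the level). For 5hmC these medians were 0.0931, 0.152 and 0.175, with a median change of -0.0708 (-0.97 on the log2 odds scale). From olfactory bulb to cerebellum the median changes were 0.19 (5mC) and -0.72 (5hmC), and from cortex to olfactory bulb 0.22 and -0.24, all in log2 odds. Tests were made with limma over all bins on log2 odds, and "called" means a Benjamini-Hochberg adjusted p under 0.05. Because limma pooled the spread almost fully over bins, the standard error was nearly equal at every locus (0.117 to 0.118 for 5mC between cerebellum and cortex), and a p-value here does not follow the spread of its own bin. Exact permutation tests over libraries cannot go below p = 0.1 for 3 against 3 or 3 against 2 libraries, so they cannot reach 0.05 here.

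From cortex to cerebellum, 5mC was called lower at 4 of the 9 loci, those of Neurod1, Cbln1, Zic2 and Pax6, while 4.44% of all bins, and 5.41% of the bins with a protein-coding start site, were called lower. It was called higher at 1 locus, En2, while 71.9% of all bins were called higher. The median difference over the 9 loci was -0.0370, against 0.0585 over all bins. After centring each library on its median, 8 of the 9 loci were called lower (24.3% of bins), and En2 was the exception with neither call.

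**Figure D1:**
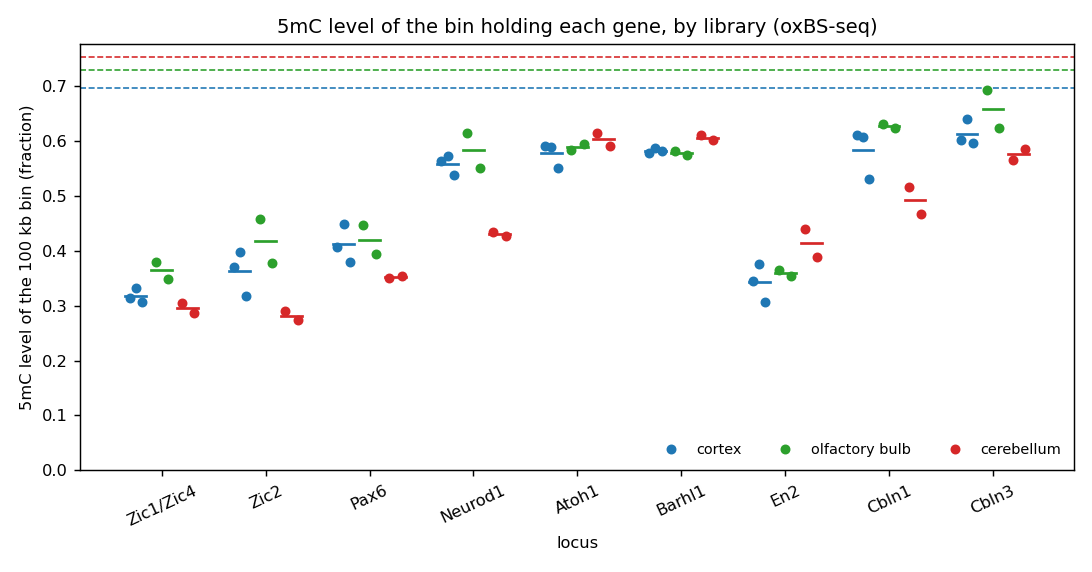
5mC level (fraction, y axis) of the 100 kb bin of each locus (x axis) in each oxBS-seq library, with a short bar at the mean of each tissue and a dashed line at that tissue's median over all tested bins. All loci lie below the genome medians, and both cerebellum libraries lie below all cortex and olfactory bulb libraries at Neurod1, Zic2, Pax6, Cbln1, Cbln3 and Zic1/Zic4.

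Neurod1 (ENSMUSG00000034701.9, chr2:79452521-79456751, minus strand) encodes a basic helix-loop-helix factor that drives differentiation and survival of granule neurons. The 5mC level of its bin, chr2:79400001-79500000, was 0.563, 0.572 and 0.539 in the cortex libraries, 0.615 and 0.552 in olfactory bulb, and 0.433 and 0.428 in cerebellum. The cerebellum libraries stood below all others with a wide gap, while cortex and olfactory bulb overlapped. The mean was 0.430 ± 0.00419 (SD, n = 2) in cerebellum and 0.558 ± 0.0171 (SD, n = 3) in cortex, a difference of -0.74 on the log2 odds scale (limma adjusted p = 3.75e-09). Only 0.433% of bins had a more negative difference, and the level ranked at percentile 0.896 of all bins in cerebellum and 8.71 in cortex.

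Zic2 (ENSMUSG00000061524.8, chr14:122475435-122479852, plus strand) is a zinc finger factor of granule precursors. Its bin had 5mC levels of 0.371, 0.398 and 0.318 in cortex, 0.458 and 0.378 in olfactory bulb, and 0.290 and 0.274 in cerebellum. The cerebellum libraries were again the lowest, and olfactory bulb overlapped cortex. The log2 odds fell by 0.53 from cortex (limma adjusted p = 2.35e-05) and were lower than in olfactory bulb by -0.87 (adjusted p = 1.03e-09).

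Zic1 (ENSMUSG00000032368.14, chr9:91358058-91365810, minus strand) and Zic4 (ENSMUSG00000036972.14, chr9:91362413-91389348, plus strand) are a divergent pair of the same family, whose joint loss has been linked to malformation of the cerebellum. Their shared bin had the lowest 5mC of the loci in cortex and was also low in the other tissues, with 0.3137, 0.3327 and 0.3066 in cortex, 0.379 and 0.349 in olfactory bulb, and 0.305 and 0.288 in cerebellum. The cerebellum libraries lay just under those of cortex, a gap of -0.14 in log2 odds that did not pass the test (limma adjusted p = 0.251). The olfactory bulb libraries lay above all others, and the difference of cerebellum from them, -0.44, was called (limma adjusted p = 0.00253).

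Pax6 (ENSMUSG00000027168.21, chr2:105668900-105697364, plus strand), a paired-box factor needed for granule cell polarity and migration, had 5mC levels of 0.407, 0.449 and 0.380 in cortex, 0.447 and 0.394 in olfactory bulb, and 0.351 and 0.354 in cerebellum. The cerebellum libraries were nearly equal and below the rest, and the other tissues overlapped. The log2 odds fell by 0.36 from cortex to cerebellum (limma adjusted p = 0.0036), and without cortex replicate 2, the highest library at this bin, the difference of -0.25 was not called (adjusted p = 0.0695).

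Atoh1 (ENSMUSG00000073043.5, chr6:64729125-64731245, plus strand) is the factor that specifies granule precursors and is switched off when they mature. Its bin showed 0.592, 0.590 and 0.551 in cortex, 0.583 and 0.595 in olfactory bulb, and 0.615 and 0.591 in cerebellum. The 3 tissues overlapped, and no pair was called (0.15 in log2 odds between cerebellum and cortex, limma adjusted p = 0.227). Barhl1 (ENSMUSG00000026805.14, chr2:28907679-28916668, minus strand), a homeobox factor that follows Atoh1, had 0.579, 0.587 and 0.581 in cortex, 0.582 and 0.575 in olfactory bulb, and 0.610 and 0.602 in cerebellum. Both cerebellum libraries were the highest at Barhl1, by less than the test could call (0.14, limma adjusted p = 0.259). Relative to the library medians, however, both bins were called lower in cerebellum than in cortex, Atoh1 by -0.26 and Barhl1 by -0.27, so that the direction of these loci depends on whether the shift of the genome is taken out.

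En2 (ENSMUSG00000039095.8, chr5:28165694-28172166, plus strand), a homeobox factor that patterns the cerebellar lobules, went the other way. Its bin had 5mC levels of 0.346, 0.376 and 0.307 in cortex, 0.364 and 0.354 in olfactory bulb, and 0.439 and 0.389 in cerebellum. The cerebellum libraries were the highest and cortex and olfactory bulb overlapped. The rise from cortex was 0.44 in log2 odds (limma adjusted p = 0.000393), which equals the median change of all bins within its standard error, and it was lost without cerebellum replicate 1 (0.29, adjusted p = 0.0941).

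Of the secreted synaptic organisers, Cbln1 (ENSMUSG00000031654.16, chr8:87468405-87472609, minus strand) is secreted from parallel fibres and organises their synapses with Purkinje cells. Its bin had 5mC levels of 0.611, 0.608 and 0.531 in cortex, 0.631 and 0.624 in olfactory bulb, and 0.516 and 0.467 in cerebellum. The cerebellum libraries were below the rest, although cortex replicate 3, whose median over all bins was also the lowest (0.679), came close. The log2 odds fell by 0.54 from cortex (limma adjusted p = 1.78e-05) and by 0.80 from olfactory bulb (adjusted p = 1.87e-08). Cbln3 (ENSMUSG00000040380.14, chr14:55878913-55884392, minus strand), the granule cell partner with which Cbln1 assembles, had 0.602, 0.639 and 0.596 in cortex, 0.692 and 0.623 in olfactory bulb, and 0.565 and 0.586 in cerebellum. Here too the cerebellum libraries were the lowest, but the difference from cortex, -0.22 in log2 odds, did not pass the test (limma adjusted p = 0.0756), while that from olfactory bulb, -0.51, did (adjusted p = 0.000539).

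Against olfactory bulb as a whole, 5mC was lower in cerebellum at 6 loci (Zic1/Zic4, Zic2, Pax6, Neurod1, Cbln1 and Cbln3), compared with 7.69% of all bins and 9.25% of the bins with a protein-coding start site. It was called higher at En2, compared with 35.3% of bins. In this comparison 6 loci were also called lower after centring (21.3% of bins). Without olfactory bulb replicate 1, the higher of the olfactory bulb libraries at every locus except Atoh1, the limma count fell to 3, with Zic1/Zic4 (adjusted p = 0.111), Pax6 (0.269) and Cbln3 (0.204) no longer called, and En2 was no longer called higher, as was also the case without olfactory bulb replicate 2 or cerebellum replicate 1. Between olfactory bulb and cortex no locus was called lower by limma (2.18% of bins), with 0 also at an unadjusted p under 0.05, and 3 were called higher (37.6% of bins), Zic1/Zic4, Zic2 and Cbln3. This count ran from 0 to 4 when 1 library was left out, with 0 without cortex replicate 3 or without olfactory bulb replicate 1.

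From cortex to cerebellum the flanks were more often called higher than lower, as the bins of the whole genome were. Of the 90 flanking bins, 10 per locus, 55 were called higher and 7 lower in cerebellum than in cortex. Of all bins, 71.9% were called higher and 4.44% lower. The flanks of Zic2 were mixed, with 4 called higher and 3 lower. Against olfactory bulb, 23 of the 90 were called higher and 8 lower, beside 35.3% and 7.69% of all bins. The bin of the gene had the lowest cerebellar 5mC of the 11 bins at 7 loci, but it was also the lowest in cortex at 6, so the dip of level at the gene was present in both tissues. Subtracting the mean of the 10 flanking bins within each library takes out shifts of a whole library. The difference of gene and flank was then lower in all cerebellum than in all cortex libraries at 7 of the 9 loci, compared with 27.0% of bins, and higher at 1, En2, compared with 26.7%. Against olfactory bulb it was lower at 6 (33.0% of bins) and higher at 2, Barhl1 and En2 (31.8%). No permutation test of this measure could go below 0.1.

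Neurod1 had the sharpest contrast. The level of its bin minus that of its flanks was -0.117, -0.116 and -0.116 in the cortex libraries, -0.0929 and -0.158 in olfactory bulb, and -0.343 and -0.335 in cerebellum. The cerebellum libraries were far below the others, which overlapped. While the bin of the gene fell, 9 of its 10 flanking bins were called higher in cerebellum than in cortex, with differences between 0.0268 and 0.151 over the 10. When the 100 kb bins were averaged into 1 Mb, the locus was higher in cerebellum than in cortex by 0.53 in log2 odds, so that its direction turned with the size of the bin. The differences at Zic1/Zic4, Pax6 and Cbln1 were likewise above 0 at this scale. At 1 Mb limma called none of the 9 loci lower than in cortex (0 also at an unadjusted p under 0.05) and 3 higher. The shares of all 1 Mb bins called were not counted. Of the 100 kb bins only 4.44% were called lower, so the 0 at 1 Mb is not a result about these loci.

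**Figure D2:**
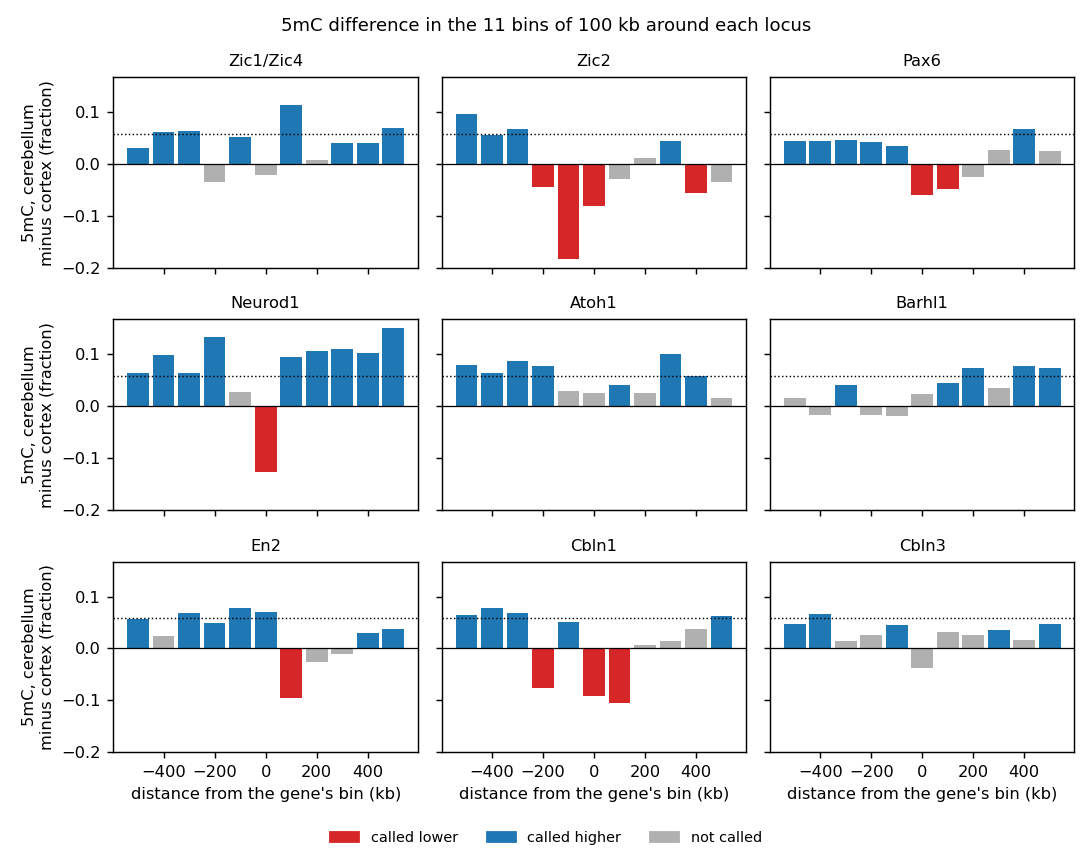
Difference of mean 5mC level between cerebellum and cortex (fraction, y axis) in the 11 bins of 100 kb centred on the bin of each gene (distance in kb, x axis), coloured by the limma call, with the median of all bins as a dotted line. The fall at Neurod1 is a single bin of -0.127 among flanks that are all above 0, and the largest falls near Zic2, Cbln1 and En2 lie in a bin next to the gene.

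Of the 7 flanking bins called lower, 3 lay near Zic2, 2 near Cbln1 and 1 each near En2 and Pax6, and at Zic2, Cbln1 and En2 the largest of them exceeded the difference of the bin of the gene. The bins named in this paragraph were chosen after their values were seen. Beside Zic2, the bin chr14:122300001-122400000 which lies wholly in Clybl, a gene for a mitochondrial lyase, had 0.693, 0.714 and 0.663 in cortex, 0.696 and 0.709 in olfactory bulb, and 0.507 and 0.505 in cerebellum, a difference from cortex of -0.184 (limma adjusted p = 6.49e-19). That is more than the -0.0802 of the Zic2 bin itself. The cerebellum libraries were far below the others, which overlapped. Beside Cbln1, the bin chr8:87500001-87600000, which holds 4933402J07Rik, differed by -0.106 (limma adjusted p = 1.31e-07) and the bin chr8:87200001-87300000, with no protein-coding gene, by -0.0767 (adjusted p = 5.56e-05). Beside En2, whose own bin was higher, the bin chr5:28200001-28300000 which holds Cnpy1, had 0.600, 0.619 and 0.563 in cortex, 0.639 and 0.593 in olfactory bulb, and 0.516 and 0.481 in cerebellum. It was below cortex by -0.0954 (limma adjusted p = 7.33e-06), with the cerebellum libraries under all others. Beside Pax6, the bin chr2:105700001-105800000 over Elp4 differed by -0.0482 (adjusted p = 0.00583).

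5hmC was available only per 1 Mb, of which each gene is less than 3%, so a value at this scale describes the neighbourhood of the gene. From cortex to cerebellum 5hmC was called lower at 7 of the 9 loci, beside 97.6% of all bins. Limma called none higher (0 also at an unadjusted p under 0.05), compared with 0.426% of bins. The 2 loci not called were Zic1/Zic4 and Cbln1. The median difference over the 9 loci was -0.0319, against -0.0708 over all bins. After centring on the library medians the direction turned, and 8 of the 9 loci were called higher in cerebellum, compared with 50.3% of bins. Neurod1 was the exception. The 5hmC of these neighbourhoods was thus called lower in absolute level at 7 loci, and at 8 it was called higher relative to the median bin of its library.

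**Figure D3:**
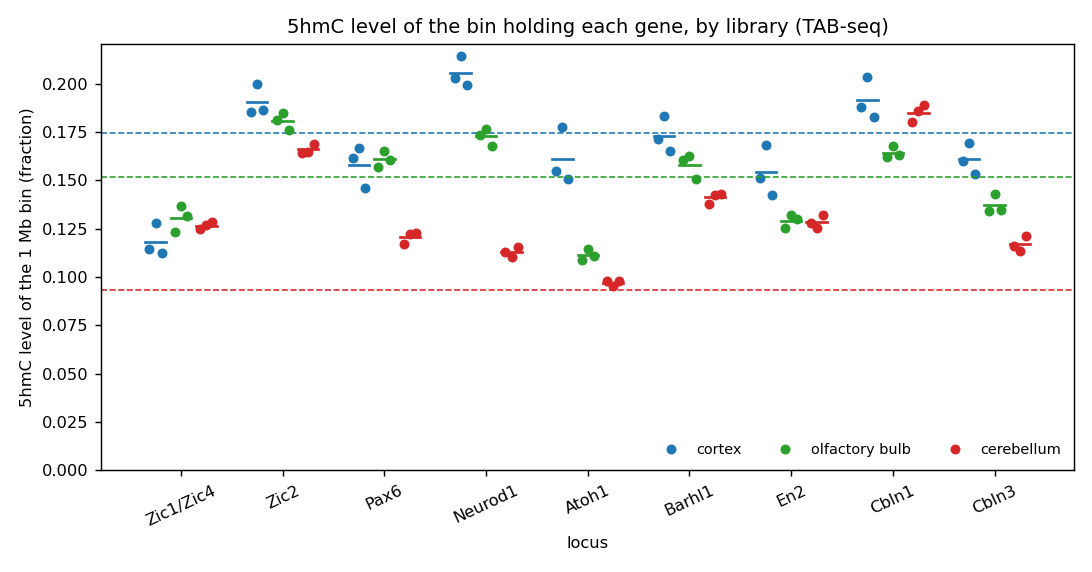
5hmC level (fraction, y axis) of the 1 Mb bin of each locus (x axis) in each TAB-seq library, with a short bar at the mean of each tissue and a dashed line at that tissue's median over all tested bins. All loci lie above the cerebellar median of 0.0931 in cerebellum, and cerebellum overlaps cortex only at Zic1/Zic4 and Cbln1.

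The bin of Zic1 and Zic4, chr9:91000001-92000000, had 5hmC levels of 0.114, 0.128 and 0.112 in cortex, 0.124, 0.137 and 0.132 in olfactory bulb, and 0.125, 0.127 and 0.128 in cerebellum. The tissues overlapped, and the difference between cerebellum and cortex was 0.12 in log2 odds (limma adjusted p = 0.116). That placed it at percentile 99.3 of all bins, because nearly all others dropped. Without cortex replicate 2 it was called higher (0.18, adjusted p = 0.00376). The level was at percentile 15.8 of bins in cortex and 75.3 in cerebellum.

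The bin of Cbln1, chr8:87000001-88000000, had 0.188, 0.204 and 0.183 in cortex, 0.162, 0.168 and 0.163 in olfactory bulb, and 0.180, 0.186 and 0.189 in cerebellum. Cerebellum overlapped cortex and was above all olfactory bulb libraries. Its 5hmC was higher than in olfactory bulb by 0.21 in log2 odds (limma adjusted p = 0.0049, exact permutation p = 0.1, the smallest possible), and 1.20% of bins were called higher. At 0.185 ± 0.00451 (SD, n = 3) it was at percentile 97.6 of cerebellar bins.

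Neurod1 was the opposite case. Its bin, chr2:79000001-80000000, had 5hmC of 0.203, 0.215 and 0.200 in cortex, 0.174, 0.177 and 0.168 in olfactory bulb, and 0.113, 0.111 and 0.116 in cerebellum. The 3 tissues were fully apart, in the order cortex, olfactory bulb, cerebellum. The log2 odds fell by 1.02 from cortex to cerebellum (limma adjusted p = 8.85e-44), near the median change of all bins, and the centred difference was 0.02. At the locus where 5mC of the gene's bin fell most, the 5hmC of the surrounding 1 Mb thus moved near the median of all bins in log2 odds against cortex. As a fraction its difference from cortex was -0.0927, at percentile 20.1 of all bins, whose median was -0.0708. Against olfactory bulb the centred difference was 0.0893 and was called higher (limma adjusted p = 0.00795).

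The other loci lay between these. The 5hmC fell from cortex to cerebellum by 0.24 at Zic2 (limma adjusted p = 0.000995), by 0.45 at Pax6 (adjusted p = 8.28e-10), by 0.84 at Atoh1 (7.85e-30), by 0.35 at Barhl1 (2.25e-06), by 0.30 at En2 (4e-05) and by 0.53 at Cbln3 (4.18e-13), all in log2 odds. At each of these the highest cerebellum library was below the lowest cortex library. At Atoh1 the cortex libraries had 0.155, 0.178 and 0.151, while olfactory bulb had 0.109, 0.115 and 0.111 and cerebellum 0.0978, 0.0953 and 0.0980, so that olfactory bulb lay nearer to cerebellum than to cortex. At En2, olfactory bulb (0.125, 0.132 and 0.130) and cerebellum (0.128, 0.126 and 0.132) overlapped, with a difference of -0.01 (limma adjusted p = 0.905).

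Against olfactory bulb, 5hmC was called lower in cerebellum at 6 loci, compared with 91.8% of bins, and called higher at Cbln1 alone. The call at Zic2 (limma adjusted p = 0.0459) was lost without any 1 library of cerebellum or olfactory bulb, or without cortex replicate 1 (0.0512 to 0.126). The call at Barhl1 was lost without olfactory bulb replicate 2 (limma adjusted p = 0.0512). All 9 loci were called higher after centring, compared with 50.9% of bins. Between olfactory bulb and cortex, 6 loci were called lower (67.7% of bins) and 1, Zic1/Zic4, was called higher (3.25% of bins, 0.17 in log2 odds, limma adjusted p = 0.034). That call was lost in turn without cortex replicate 1 or 3 or olfactory bulb replicate 2 or 3, with limma adjusted p from 0.0994 to 0.144.

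Each 1 Mb locus was also set against the 1 other bin that its flanks reached. Gene bin minus flank bin was higher in all cerebellum than in all cortex libraries at 6 loci (39.6% of bins) and lower at 2, Neurod1 and En2 (41.5%). Against olfactory bulb it was higher at 8 (42.3%) and lower at Barhl1 (40.8%). The shares over all bins are of an unlike measure, each bin minus the mean of the bins on either side of it. With flanks of 1 Mb the difference from cortex turned to 0.00126 at En2, and that from olfactory bulb turned to 0.00846 at Barhl1. The lower counts were then 1 against cortex and 0 against olfactory bulb. The widest contrast with cortex was at Zic1/Zic4, whose bin minus its neighbour was between -0.0328 and -0.0289 in the cortex libraries and between 0.0303 and 0.0346 in those of cerebellum. Against olfactory bulb the widest difference of means was 0.0695, at Cbln1.

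The share of 5hmC in the sum of 5mC and 5hmC was computed per 1 Mb from the tissue means, as a description without a test. Over all bins its median was 11.1% in cerebellum, 17.7% in olfactory bulb and 20.5% in cortex. In the same order it was 21.8%, 19.1% and 22.5% at Cbln1, 21.2%, 21.3% and 22.9% at Zic2, and 15.1%, 16.0% and 14.8% at Zic1/Zic4. At Neurod1 it was 13.3%, 19.8% and 23.7%, and at Atoh1 11.3%, 12.8% and 18.5%. At 6 of the 9 loci (Zic2, Neurod1, Atoh1, Barhl1, En2 and Cbln3) the tissues stood in the order of the genome medians. The share of all bins with this order was not counted. Cerebellum and olfactory bulb were nearly equal at Zic2, and at En2 with 16.4% and 16.5%.

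Related genes were read at the 100 kb bin of their start site, beside the members. The lists were chosen with earlier results of these data known, so their counts are a description and not independent support. Of 12 other genes known from granule neurons, 5 were called lower in 5mC in cerebellum than in cortex, as 4.44% of all bins were. 1 was called higher, as 71.9% of all bins were. The median difference was -0.0211. Fat2, a giant cadherin of granule cells, differed most, at 0.398 ± 0.0175 (SD, n = 2) in cerebellum and 0.683 ± 0.0204 (SD, n = 3) in cortex. Its log2 odds fell by 1.71 (limma adjusted p = 5.66e-40), more than at any member. Tiam1, an activator of Rac, rose by 0.29 (adjusted p = 0.0212), but no gene of this list was called higher without cortex replicate 1 or without cerebellum replicate 1. After centring, 11 of the 12 were called lower, compared with 24.3% of bins.

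The 8 paralogs of the members had a median difference of 0.0472. 6 of them were called higher, as 71.9% of all bins were, and 1 was called lower, as 4.44% were. The one called lower was Zic5, which lies in the bin of Zic2 and adds no value of its own. En1, the paralog of En2, rose most, from 0.479 ± 0.0518 (SD, n = 3) to 0.588 ± 0.0237 (SD, n = 2; limma adjusted p = 3.9e-07). Without cerebellum replicate 1 the count called higher was 3.

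Among 10 genes of Purkinje cells, the far less numerous output neurons of the cerebellar cortex, 7 were called higher, near the 71.9% of all bins. Limma called none lower (0 also at an unadjusted p under 0.05), against 4.44% of bins. The mean difference was below 0 at 0 of the 10 genes. Their median difference was 0.0579, close to that of all bins. Itpr1, the calcium channel of their endoplasmic reticulum, rose from 0.544 ± 0.0115 (SD, n = 3) to 0.682 ± 0.00896 (SD, n = 2; limma adjusted p = 1.66e-11). Among 10 transcription factors of cortical excitatory neurons, likewise 7 were called higher, near the same 71.9%, and none was called lower by limma (0 also at an unadjusted p under 0.05), with a median of 0.0744. Without cortex replicate 3, 1 of them was called lower. After centring, 2 of each list were called lower, near the 24.3% of all bins, and 2 Purkinje cell genes and 4 cortical factors were called higher, compared with 25.7% of bins.

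**Figure D4:**
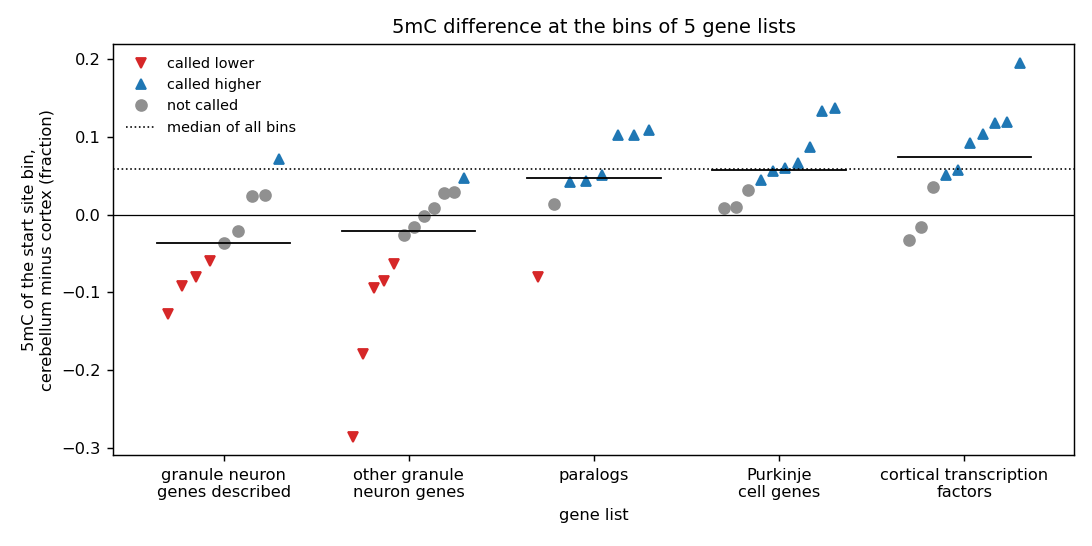
Difference of mean 5mC level between cerebellum and cortex (fraction, y axis) at the start site bin of each gene, for 5 gene lists (x axis), with the median of each list as a bar and that of all bins as a dotted line. Both granule neuron lists have medians below 0, at -0.0370 and -0.0211, and the other lists have medians from 0.0472 to 0.0744, near the 0.0585 of all bins. The lists were chosen with earlier results of these data known.

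The bin whose 5mC levels were most like those of Neurod1, by Euclidean distance over the 7 oxBS-seq libraries and among bins with a protein-coding start site elsewhere in the genome, was chr5:147400001-147500000. It holds the start sites of Flt3, a receptor tyrosine kinase of blood progenitors, and Pan3, a subunit of a deadenylase. Its mean level was 0.437 in cerebellum, 0.550 in cortex and 0.571 in olfactory bulb, at a distance of 0.0333.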

How the data were processed

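The authors mapped oxBS-seq and TAB-seq reads uniquely to mm10 with Bismark, tested sites with a binomial model at a coverage of at least 5, and deposited, per library, binned levels as a fraction from 0 to 1 without counts or coverage. How sites were combined into bins is not given in the sources used here. The members, gene lists and tests were chosen with earlier results of these data known. Bins listed at 0 or 1 in any library were left out (25664 of 26327 bins for 5mC and 2581 of 2641 for 5hmC remained). Levels as log2 odds were fitted with limma 3.58.1 in R 4.3.3, in 1 model of the 3 tissues per assay without covariates, with Benjamini-Hochberg adjustment over all bins at 0.05. The code was tested on simulated data. Positions came from GENCODE M21, promoters from RefSeq (7 of the 10 genes matched). Genes named were all members and, per list, the called genes with the largest rise and fall, of which 1 is not reported here. RNA-seq libraries were not analysed here, and no batch is named in the sources used here.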

Additional observations from a re-analysis of the deposited data

How the results depend on the processing

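Counts and directions below are over the 9 loci unless a gene list is named. The limma trend and robust options, the fraction scale, autosomes only, fits of only the tissues compared, the start site bin and weighting by gene bases (both identical, since each gene lies in 1 bin) left every count of called loci within 1.5 times. Centring on the library medians moved most counts. For 5mC it gave 8 lower and 0 higher between cerebellum and cortex, 0 higher between cerebellum and olfactory bulb, and 1 lower and 0 higher between olfactory bulb and cortex, with Atoh1 at -0.26 and Barhl1 at -0.27 log2 odds turned against cortex. For 5hmC it gave 0 lower and 8 higher against cortex, 0 lower and 9 higher against olfactory bulb, and 2 lower and 4 higher between olfactory bulb and cortex. The centred 5hmC differences between cerebellum and cortex that turned were 0.80 at Zic2, 0.59 at Pax6, 0.0192 at Neurod1, 0.21 at Atoh1, 0.70 at Barhl1, 0.74 at En2, 0.98 at Cbln1 and 0.51 at Cbln3. Those between cerebellum and olfactory bulb were 0.75 at Zic1/Zic4, 0.65 at Zic2, 0.32 at Pax6, 0.0893 at Neurod1, 0.58 at Atoh1, 0.62 at Barhl1, 0.79 at En2 and 0.54 at Cbln3, and those between olfactory bulb and cortex 0.15 at Zic2 and 0.0800 at Barhl1. Centred counts of genes lower and higher than in cortex were 2 and 1 for the paralogs, 11 and 0 for the other granule neuron genes, 2 and 2 for the Purkinje cell genes and 2 and 4 for the cortical factors. These turns follow from the construction, since centring removes the genome shift.

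Averaging 5mC into 1 Mb bins gave 0 loci lower and 3 higher against cortex and 2 lower against olfactory bulb, without a count over all bins at this scale. It turned the differences from cortex to 0.20 at Zic1/Zic4, 0.0875 at Pax6, 0.53 at Neurod1 and 0.0279 at Cbln1, those from olfactory bulb to 0.15 at Zic1/Zic4, 0.0486 at Pax6, 0.28 at Neurod1 and 0.0134 at Cbln3, and that between olfactory bulb and cortex to 0.22 at Barhl1. With all bins kept and levels of 0 and 1 moved just inside the range, 5mC was lower than in cortex at 2 loci and higher at 2. Then 0 were higher in olfactory bulb than in cortex. Zic2 (limma adjusted p = 0.0622) and Pax6 (0.0779) were no longer called against cortex, nor Pax6 (0.109) and Cbln3 (0.0730) called lower than in olfactory bulb. The differences from cortex were unchanged, at -0.53 for Zic2 and -0.36 for Pax6. In this fit limma pooled the spread over bins far less, with prior degrees of freedom of 1.317 in place of 905.1. Why the pooling changed was not tested. For 5mC minus flank against cortex, the median of the flank bins, or only flank bins without a coding start site, gave 0 higher in place of 1. For 5hmC minus flank, flanks of 1 Mb gave 1 lower against cortex, with En2 at 0.00126, and 0 lower against olfactory bulb, with Barhl1 at 0.00846. Calling a gene where any of its bins was called gave 8 lower and 2 higher of the other granule neuron genes, 1 Purkinje cell gene lower and 1 cortical factor lower.

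The paper's methods describe the tissues as dissected from a mouse, with replicates from independent mice, so libraries of different tissues may share an animal. The main fit treated the libraries as unrelated. Whether the replicate numbers shared by the tissues pair the libraries could not be told. Deviations of same-numbered libraries correlated at r from -0.093 to 0.029 for 5mC and from -0.191 to 0.429 for 5hmC. For 5hmC of cerebellum and olfactory bulb, r was 0.391, 0.429 and 0.0566 for same numbers and from -0.408 to 0.124 for different numbers. With 2 or 3 libraries a tissue, the deviations within a tissue sum to 0, so these correlations cannot settle the pairing. With the replicate number as a block, 1 locus in place of 3 was higher in 5mC in olfactory bulb than in cortex and 1 cortical factor was lower in cerebellum. The block left the other counts within 1.5 times, with 5 loci lower in 5mC (Cbln3 gained, limma adjusted p = 0.0169) and 7 lower in 5hmC than in cortex. The numbers in the names of the 5mC libraries differ from those of the labels for olfactory bulb and cerebellum, and with those as the block 4 loci were lower than in cortex and 5 lower than in olfactory bulb, without Pax6 (adjusted p = 0.0715). When 1 library was left out, the counts that moved had these ranges. For 5mC, between 0 and 1 locus was higher than in cortex, between 3 and 6 were lower and between 0 and 1 higher than in olfactory bulb, and between 0 and 4 were higher in olfactory bulb than in cortex. For 5hmC, between 0 and 1 was higher than in cortex, and between 0 and 1 higher in olfactory bulb than in cortex. Of the lists, between 3 and 6 paralogs and between 0 and 1 of the other granule neuron genes were higher than in cortex, and between 0 and 1 cortical factor was lower. The reads behind each bin are not given, and 5mC had 2 libraries each of cerebellum and olfactory bulb.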
